A study of Mus musculus and Homo sapiens with 8 samples.

Results

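MYC and 30 nucleolar and ribosome biogenesis genes were followed in MDA-MB-231 cells exposed to olaparib. The 31 genes were chosen by symbol, for their place in the MYC and ribosome assembly programme, from a human count table of 25611 symbols. They were chosen with earlier results of these data known, and all 31 had a row. 1 library came from cells kept for 3 days in 40 µM olaparib, an inhibitor of the DNA repair enzymes PARP1 and PARP2. The other came from cells kept for 3 days in DMSO, the solvent. MDA-MB-231 is an established human breast cancer line of the triple-negative, mesenchymal type, which the labels give as primary breast. Both libraries were made from 1 µg of total RNA with a strand-specific kit. Each condition held 1 library, so no test was made, and every ratio compares these 2 libraries with no replicate check. The mouse macrophage and osteoclast libraries of the series are not analysed here.

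Ribosomes are built in the nucleolus. RNA polymerase I transcribes a long precursor rRNA, small nucleolar ribonucleoproteins (snoRNPs) guide its methylation and pseudouridylation, and separate sets of assembly factors fold and cut it into the small and the large subunit before export. MYC is a transcription factor that binds DNA as a heterodimer with MAX and is known for raising the transcription of genes at each of these steps, and its activity is high in many breast cancers.

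The olaparib library held 6878212 counts and the DMSO library 7472981, and a floor of 3 counts corresponds to 0.446 CPM in olaparib and 0.393 CPM in DMSO. CPM here are the usual depth-scaled counts (edgeR's cpm) after TMM scaling, which sets the ratio of the typical gene near 0. A ratio is the log2 of olaparib over DMSO on scaled counts with a pseudocount of 1, and its interval is an exact 95% interval that covers counting error only. Ratios were ranked over the 10278 genes with a mean scaled count of at least 50. The mesenchymal marker VIM had 906 CPM in olaparib and 1099 CPM in DMSO. Among luminal and hormone receptor genes, the oestrogen receptor gene ESR1 had 0 counts in both libraries. PGR had 0 counts in olaparib and 7 in DMSO, CDH1 19 in olaparib and 38 in DMSO, and EPCAM 29 in olaparib and 44 in DMSO. ERBB2 was not low, with 883 counts in olaparib and 710 in DMSO. The 6 measured markers of leukocytes, endothelium and osteoclasts had at most 45 counts in either library. Among 6 genes that mark the line, EGFR had the lowest ratio (-1.37) and CD44 the highest (-0.08). Mitochondrially encoded genes took 4.75% of counts in olaparib and 5.61% in DMSO.

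MYC mRNA was little different between the libraries, while most of the chosen genes were lower in olaparib. The 139 other ranked genes of the pathway, described below, had a median ratio of -0.20. The 31 genes together took 0.310% of all counts in olaparib (95% Wilson interval 0.306 to 0.314%) and 0.435% in DMSO (0.430 to 0.439%). Of the 30 genes that could be ranked, 13 were lower by at least 1 log2, against a background of 21.2% of all genes ranked, and 0 were higher by at least 1 log2, against 7.82%. At 0.5 log2 the counts were 17 lower and 2 higher, where the background was 34.7% lower and 27.7% higher. The median ratio of the 30 was -0.70, and that of all genes ranked was -0.02. The spread within the set was wide, with 21 genes below 0 and 9 above it, where 49.2% of all genes ranked were above 0, and ratios between -2.99 for DNTTIP2 and 0.60 for FBL. RNA was taken from whole cultures, so fewer cells of a type and less RNA per cell cannot be told apart.

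**Figure D1:**
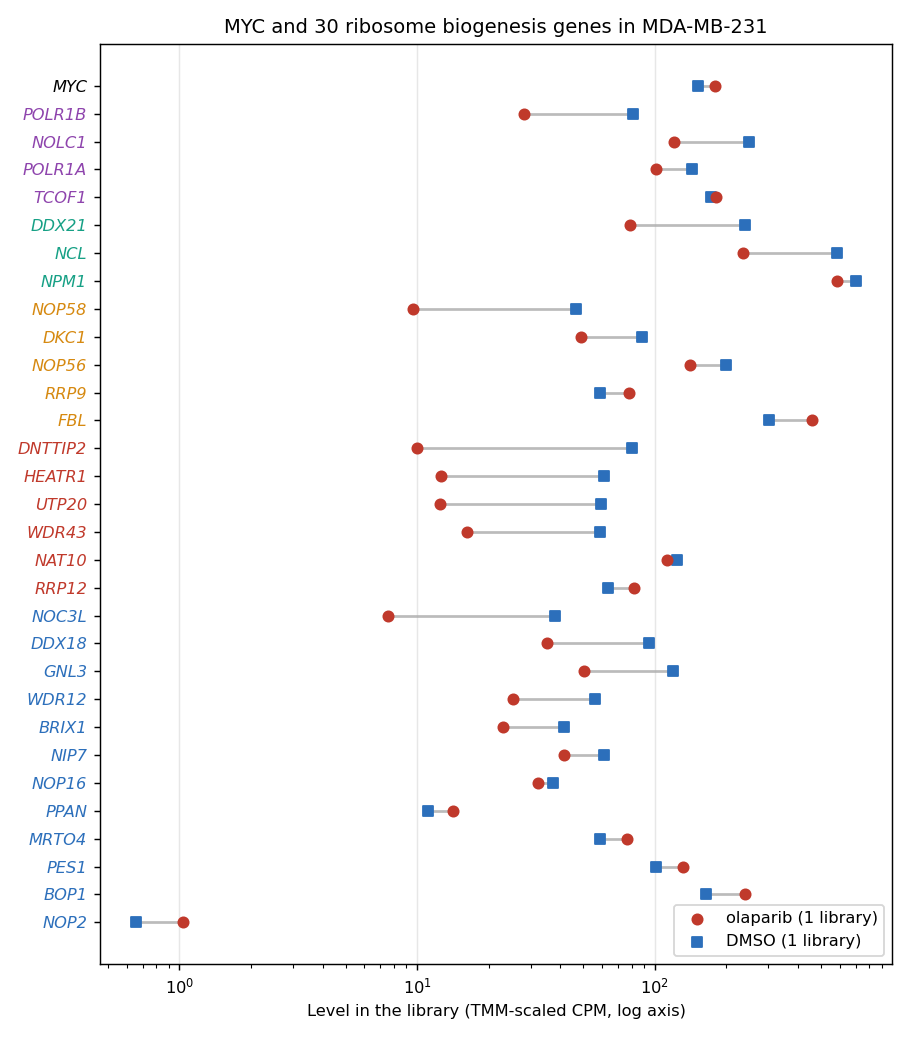
Level of each of the 31 genes in the 2 libraries, in TMM-scaled CPM on a log axis; red circles are the olaparib library, blue squares the DMSO library, grey lines join the values of a gene, and the colour of a name gives its role. DNTTIP2 lies at 9.95 CPM in olaparib and 80.03 CPM in DMSO, while the circle and the square of TCOF1 nearly coincide.

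MYC itself had 1201 counts in olaparib and 1157 in DMSO, or 178 CPM in olaparib and 152 CPM in DMSO. Its ratio was 0.24 (0.12 to 0.35), which placed it at the 60th percentile of the genes ranked (60.1). The ratio stayed above 0 under every scaling tried, between 0.05 and 0.29. With the corrections described below it was -0.09 by GC content, -0.01 by length and -0.06 by both. MAX, the obligate partner of MYC, had 361 counts in olaparib and 401 in DMSO, a ratio of 0.03.

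Of the 4 members of rRNA transcription, 2 were lower by at least 1 log2 (background 21.2%). TCOF1 was the 1 with a ratio above 0 (background 49.2%). POLR1B, which encodes the second-largest subunit of RNA polymerase I, had 28.2 CPM in olaparib and 81.2 CPM in DMSO, a ratio of -1.52 (-1.77 to -1.29). POLR1A, which encodes the largest subunit, had 101 CPM in olaparib and 143 CPM in DMSO, a ratio of -0.50 (-0.64 to -0.36). NOLC1, a nucleolar phosphoprotein and snoRNP chaperone, had 119.9 CPM in olaparib and 249.8 CPM in DMSO (-1.06, -1.18 to -0.94). TCOF1 encodes treacle, a nucleolar scaffold of RNA polymerase I that has a repeat structure like that of NOLC1. It had 1221 counts in olaparib and 1314 in DMSO, and its interval spanned 0 (-0.04 to 0.19). Its sign was the one that turned with scaling among the 30 genes, to -0.11 on the deposited scale.

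The abundant nucleolar proteins had unequal ratios. NCL encodes nucleolin, which binds pre-rRNA and rDNA chromatin. Its level was 235 CPM in olaparib and 586 CPM in DMSO (ratio -1.32, -1.40 to -1.23). DDX21, an RNA helicase of rRNA transcription and processing, stood at 78.9 CPM in olaparib against 240.1 CPM in DMSO (-1.60, -1.75 to -1.47). NPM1 encodes nucleophosmin, a histone and ribosomal protein chaperone. It had 3930 counts in olaparib and 5383 in DMSO, a ratio of -0.27 (-0.33 to -0.21). NPM1 has many processed pseudogenes. The 18 of them with a row in the table held 511 counts in olaparib and 612 in DMSO, and reads shared between them and NPM1 may have been divided or dropped in counting.

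The snoRNP core genes ran from strongly lower to higher. FBL, NOP56 and NOP58 encode proteins of the same particle, the box C/D snoRNP, in which FBL (fibrillarin) is the methyltransferase. NOP58 had 65 counts in olaparib and 357 in DMSO, or 9.65 CPM in olaparib and 46.8 CPM in DMSO, a ratio of -2.26 (-2.68 to -1.89). NOP56 had 141 CPM in olaparib and 200.3 CPM in DMSO (-0.51, -0.62 to -0.39). FBL had 457 CPM in olaparib and 302 CPM in DMSO, and its ratio of 0.60 (0.52 to 0.68) was the highest of the 30. DKC1, the pseudouridine synthase dyskerin of the box H/ACA snoRNP, had 48.7 CPM in olaparib and 88.2 CPM in DMSO (-0.85, -1.05 to -0.66). RRP9, a protein specific to the U3 snoRNP that starts small subunit processing, had 77.8 CPM in olaparib and 58.9 CPM in DMSO (0.40, 0.22 to 0.59).

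Of the 6 small subunit assembly genes, 4 were lower by at least 1 log2 (background 21.2%), with ratios from -2.99 to -1.85. DNTTIP2, whose protein takes part in pre-rRNA processing of the small subunit, had 67 counts in olaparib and 611 in DMSO, a ratio of -2.99 (-3.39 to -2.64) at the 0.049 percentile of the genes ranked. HEATR1, a large scaffold protein needed for rRNA transcription and early cleavage, had 12.6 CPM in olaparib against 61.2 CPM in DMSO (-2.26, -2.63 to -1.94). UTP20, another large scaffold protein of the small subunit processome, had 12.5 CPM in olaparib against 59.6 CPM in DMSO (-2.24, -2.61 to -1.92). WDR43, a WD-repeat protein of the same machinery, had 16.2 CPM in olaparib and 58.8 CPM in DMSO (-1.85, -2.18 to -1.56). The remaining pair was close to its DMSO level or above it. NAT10, the acetyltransferase of small subunit rRNA, had 113 CPM in olaparib and 124 CPM in DMSO, with an interval that spanned 0 (-0.27 to 0.01). RRP12, a factor of pre-ribosome export, had 81.8 CPM in olaparib and 63.3 CPM in DMSO (0.37, 0.19 to 0.55).

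Of 11 ranked large subunit assembly genes, 4 were lower by at least 1 log2 (background 21.2%) and 4 had a ratio above 0 (background 49.2%). NOC3L, a nucleolar factor of early large subunit assembly, had 51 counts in olaparib and 291 in DMSO (-2.31, -2.79 to -1.90). DDX18, a nucleolar RNA helicase, had 236 counts in olaparib and 721 in DMSO (-1.43, -1.65 to -1.22). GNL3 encodes nucleostemin, a nucleolar GTPase of proliferating and stem cells, and had 340 counts in olaparib and 909 in DMSO (-1.24, -1.42 to -1.06). BRIX1, which helps form the early large subunit particle, had 154 counts in olaparib and 318 in DMSO (-0.86). NIP7 had 280 counts in olaparib and 465 in DMSO (-0.55), and NOP16 had 218 in olaparib and 286 in DMSO (-0.21, -0.47 to 0.05). MRTO4, which occupies the site of the ribosomal stalk protein during assembly, had 514 counts in olaparib and 447 in DMSO (0.38, 0.20 to 0.57). PPAN had 95 counts in olaparib and 85 in DMSO, and its interval spanned 0 (-0.10 to 0.78). PPAN forms readthrough transcripts with its neighbour P2RY11, so its count may not cover all of its reads. NOP2, an rRNA methyltransferase, had 7 counts in olaparib and 5 in DMSO and was the member that fell short of the minimum for ranking. The rule used for reads of overlapping genes is not known, so this count may not cover all NOP2 reads.

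PES1, BOP1 and WDR12 form 1 complex, PeBoW, which is needed for cutting the precursor of large subunit rRNA. PES1 had 132 CPM in olaparib and 101 CPM in DMSO (0.39, 0.25 to 0.53), and BOP1 had 239 CPM in olaparib and 165 CPM in DMSO (0.54, 0.43 to 0.64). WDR12 had 25.4 CPM in olaparib and 55.9 CPM in DMSO (-1.14, -1.40 to -0.88). Thus PES1 and BOP1 of this complex were higher in olaparib, as were 49.2% of all genes ranked, and WDR12 was lower.

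**Figure D2:**
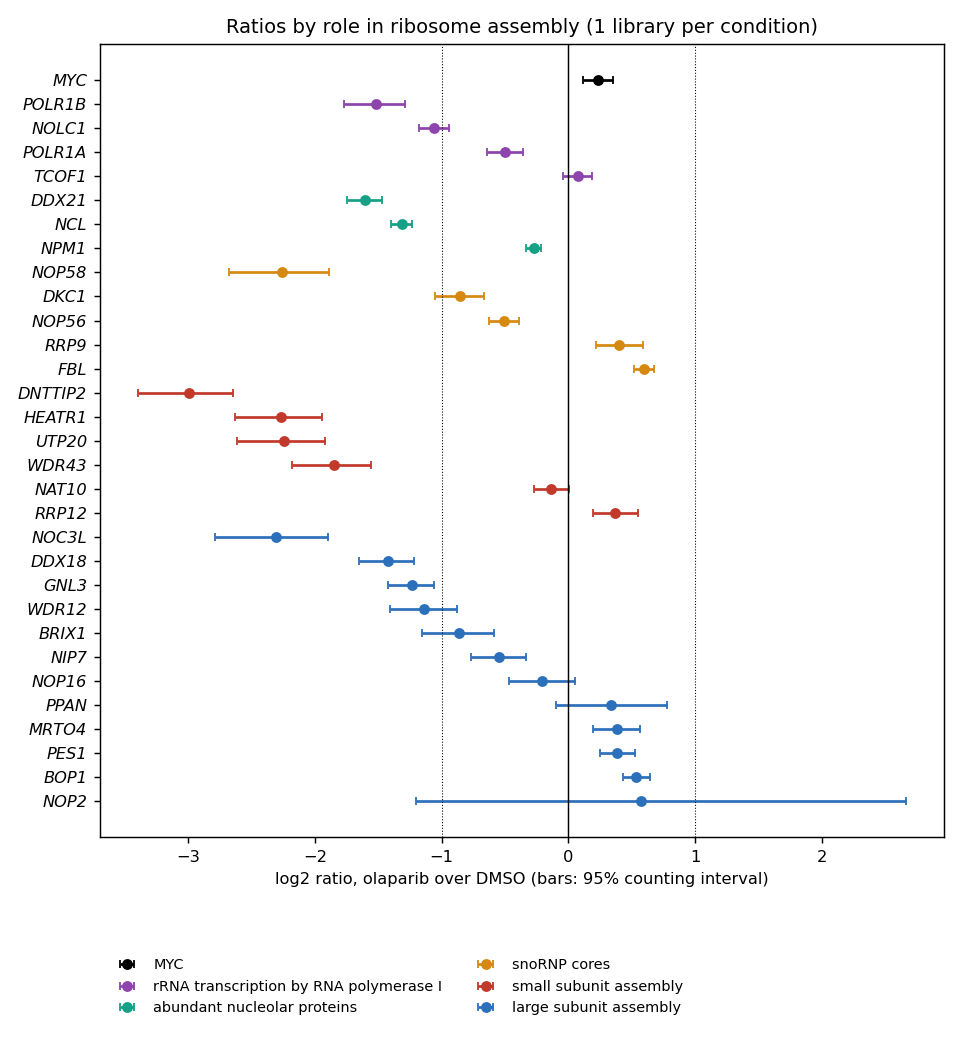
log2 ratio of olaparib over DMSO for the 31 genes, grouped and coloured by role; bars are 95% counting intervals, and dotted lines mark 1 log2 in each direction. The 4 lowest small subunit genes lie between -2.99 and -1.85, no ratio passes 0.60, and NOP2, with 7 counts in olaparib and 5 in DMSO, has the widest interval.

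Partners in a complex can be set against each other without any scaling, since the quotient of their counts within a library does not depend on depth. The quotient does not remove a trend with base composition or transcript length, which is described below. FBL had 47.3 counts for each NOP58 count in olaparib and 6.45 in DMSO, a log2 difference of 2.88 (95% counting interval 2.48 to 3.29). NOP56 had 14.6 counts for each NOP58 count in olaparib and 4.28 in DMSO, a difference of 1.77 (1.37 to 2.19). Between FBL and NOP56 the quotient was 3.24 in olaparib and 1.51 in DMSO (1.10, 0.96 to 1.25). The transcripts of the C/D particle were thus measured in different proportions in the 2 libraries. PES1 had 5.20 counts for each WDR12 count in olaparib and 1.803 in DMSO (1.53, 1.23 to 1.83), and BOP1 had 9.39 in olaparib and 2.94 in DMSO (1.68, 1.39 to 1.96). The quotient of BOP1 to PES1 was 1.81 in olaparib and 1.63 in DMSO, with an interval that included 0 (-0.03 to 0.33). POLR1A had 3.58 counts for each POLR1B count in olaparib and 1.76 in DMSO (1.03, 0.75 to 1.31). TCOF1 had 1.51 counts for each NOLC1 count in olaparib and 0.689 in DMSO (1.14, 0.97 to 1.30). These 8 pairs were chosen after their values were seen.

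**Figure D3:**
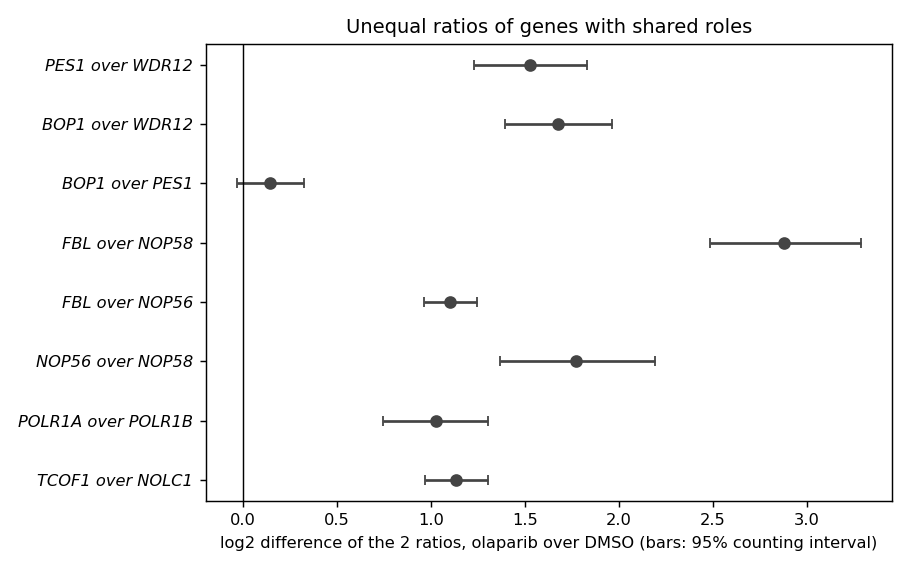
Difference between the ratios of 2 genes with a shared complex or structure, as the log2 of the quotient of their counts in olaparib over that in DMSO; bars are 95% counting intervals. FBL over NOP58 has the largest difference of the 8 pairs, 2.88, and BOP1 over PES1 is the pair whose interval includes 0.

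The other genes of the pathway, 139 ranked genes in 5 lists, had a median ratio of -0.20, with 37 lower by at least 1 log2 (26.6%, against 21.2% of all genes ranked) and 3 higher. Of 48 other small subunit genes, 15 were lower by at least 1 log2 (31.3%) and 0 higher. WDR75, a processome protein, had 69 counts in olaparib and 477 in DMSO (-2.59), and MPHOSPH10, of the U3 particle, had 23 in olaparib and 132 in DMSO (-2.29). At the other end RRP7A had a ratio of 0.89 and ABT1 one of 0.77. Of 50 other large subunit genes, 11 were lower (22%) and 1 higher by that size. MAK16 had 15 counts in olaparib and 113 in DMSO (-2.66), and EFL1, the GTPase that releases EIF6 from new large subunits, had 31 in olaparib and 197 in DMSO (-2.45). EIF6, which keeps the subunits apart, had 2334 counts in olaparib and 1489 in DMSO (0.83), and NOP53, a large subunit factor that binds the exosome, had 1756 in olaparib and 786 in DMSO (1.34).

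Among all genes ranked, 21.2% were lower and 7.82% higher by at least 1 log2. Of 13 other RNA polymerase I genes, 3 were lower by at least 1 log2 (23.1%) and 0 higher. The polymerase subunit gene TWISTNB had 81 counts in olaparib and 272 in DMSO (-1.56), and RRN3, the factor that brings the polymerase to its promoter, had 52 in olaparib and 165 in DMSO (-1.47). ZNRD1, a small subunit of the enzyme (0.70), and TAF1C, of the promoter selectivity factor (0.49), had the highest ratios. Of 13 other snoRNP genes, 3 were lower (23.1%) and 2 higher by at least 1 log2, and the median was 0.28. RPAP3 (-1.69), a chaperone cofactor, and ZNHIT6 (-1.68) were the lowest, and the box H/ACA protein NOP10 (1.13) and ZNHIT3 (1.53) the highest. Of 15 exosome and trimming genes, 5 were lower by at least 1 log2 (33.3%). These included MTREX, the helicase that feeds RNA to the exosome (-2.40), and DIS3, its exonuclease (-2.17), while the core subunits EXOSC4 and EXOSC5 had ratios of 0.52 and 0.56.

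MYC targets outside ribosome assembly had a median ratio close to that of all genes. Of 39 such genes, 3 were lower by at least 1 log2 (7.69%, against 21.2% of all genes ranked) and 0 higher (against 7.82%), with a median of 0.07, which was -0.11 on the deposited scale. TFRC, the transferrin receptor, had 1293 counts in olaparib and 4567 in DMSO (-1.64), and HSPD1, the mitochondrial chaperonin, had 1520 in olaparib and 4303 in DMSO (-1.32). HSPE1, the cochaperonin transcribed from the same bidirectional promoter as HSPD1, had 544 counts in olaparib and 390 in DMSO (0.66), and PHB, prohibitin, had 1886 in olaparib and 1287 in DMSO (0.73). Of 17 genes of purine and pyrimidine synthesis, 3 were lower (17.6%) and 0 higher by at least 1 log2. The purine enzymes PAICS (-1.36) and PPAT (-1.29) were the lowest, and IMPDH2 (0.43) and NME1 (0.69) the highest.

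Of 13 genes of the MAX network and of MYC stability, 3 were lower by at least 1 log2 (23.1%, against 21.2% of all genes ranked) and 3 higher (against 7.82%). MGA, a MAX partner that represses transcription, had 68 counts in olaparib and 429 in DMSO (-2.46), and USP28, which protects MYC from degradation, had 142 in olaparib and 350 in DMSO (-1.12). MXD3, with 724 counts in olaparib and 330 in DMSO (1.31), and MXD4, with 778 in olaparib and 369 in DMSO (1.26), encode MAX partners that oppose MYC at its targets. All 5 ranked genes known to be repressed by MYC had a ratio above 0 with TMM scaling, as did 49.2% of all genes ranked, and on the deposited scale CLU, the lowest, was at -0.02. These included CDKN1A, an inhibitor of cell cycle kinases (1.64), and NDRG1 (1.01), then CDKN1B (0.23) and CLU (0.16). CDKN1A is also a target of other pathways.

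RNA polymerase III makes the smallest rRNA and the tRNAs. Of its 20 ranked genes, 5 were lower (25%, against 21.2% of all genes ranked) and 1 higher by at least 1 log2, with a median of -0.02. The subunit gene POLR3B had 20 counts in olaparib and 133 in DMSO (-2.50), and BDP1, of the initiation factor, had 25 in olaparib and 153 in DMSO (-2.39). MAF1, the repressor of this polymerase, had 2838 counts in olaparib and 1608 in DMSO (1.00), and the subunit gene POLR3GL had a ratio of 0.79. Of 13 noncoding host genes of snoRNAs, 0 were lower (background 21.2%) and 1 was higher by at least 1 log2 (background 7.82%). Their median was 0.15, and -0.03 on the deposited scale. The highest were ZFAS1 (1.20) and SNHG8 (0.92), and the lowest were SNHG1 (-0.86) and SNHG5 (-0.46).

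**Figure D4:**
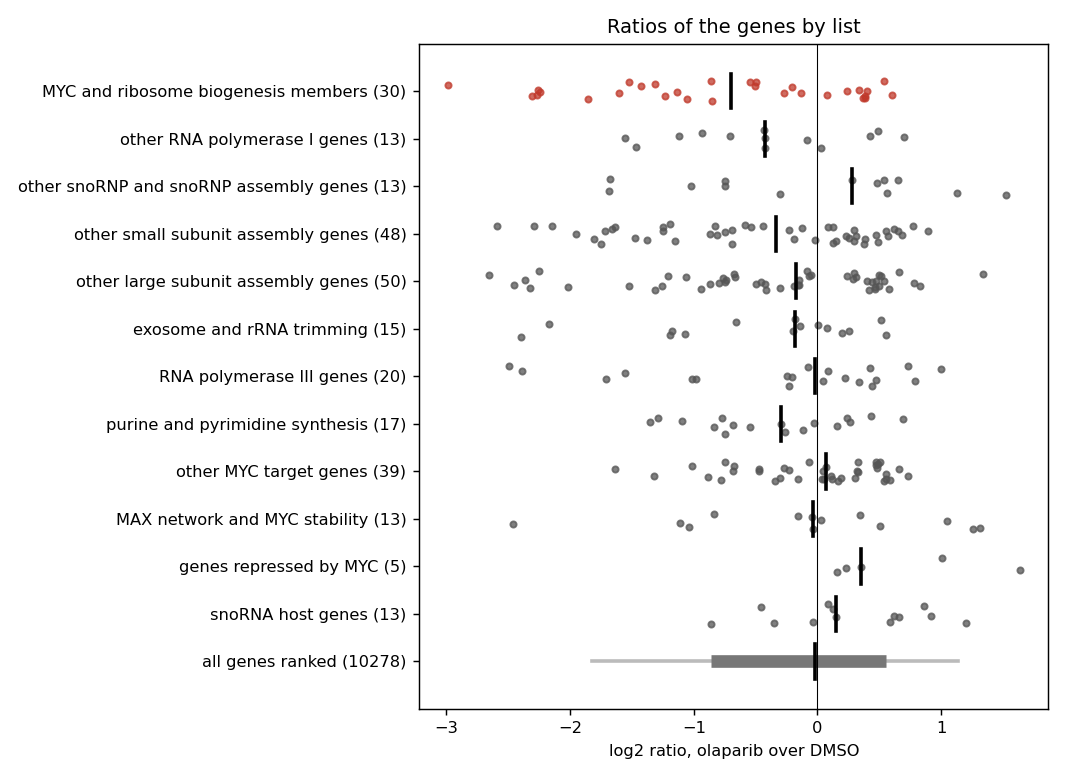
log2 ratio of olaparib over DMSO for each ranked gene (points) by list, with the number of genes in brackets and a black bar at the median; red points are the 30 ranked members, and the bottom row gives the middle 50% (thick) and the 5th to 95th percentile (thin) of all genes ranked. The members have a median of -0.70, the other MYC target genes one of 0.07.

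The ratios moved with base composition and length across all genes, and the members followed that trend. As no human transcript sequence was used here, GC content and length were read from the mouse gene with the same symbol, as medians over its protein-coding transcripts, which 9035 of the 10278 ranked genes and all 30 ranked members have. Over those 9035 genes, Spearman's rho between the ratio and this GC content was 0.65, and with length it was -0.46. Over the 30 members rho was 0.74 with GC content and -0.51 with length. Genes are not independent replicates, and all points share the same 2 libraries. The genes were divided into 5 bins of 1807 genes by GC content. In bin 1, with the lowest GC content, the median ratio was -0.98 and 49.4% were lower by at least 1 log2. In bin 5, with the highest, the median was 0.62 and 0.443% were.

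Of the 10 members in bin 1, among them NOP58, NCL and DNTTIP2, 7 were lower by at least 1 log2, with a median of -1.28. In bin 2, 4 of 5 members were lower by that size, against 38.4% of all genes there, and in bin 3, 2 of 7, POLR1B and NOLC1, against 18.2%. None of the 8 members in bins 4 and 5, among them FBL, BOP1, RRP9 and MYC, was. The 13 members lower by at least 1 log2 had namesakes of 42.0 to 51.4% GC, and the 9 with a ratio above 0 had namesakes of 50.2 to 59.8%. The namesakes of the 30 ranked members had a median GC content of 49.5% and a median length of 2860.5 bases. Those of the 39 MYC targets outside ribosome assembly had medians of 52.6% and 1985 bases, so the 2 lists also differ in these properties. Partners in a complex differed in GC content as well, with 42.0% for NOP58 and 56.7% for FBL, and 43.2% for WDR12 and 50.2% for PES1. POLR1B and POLR1A had namesakes of 50.1% and 51.1% GC and of 3383.5 and 9216 bases, with ratios of -1.52 and -0.50. The part of base composition and length in the ratios was not tested.

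**Figure D5:**
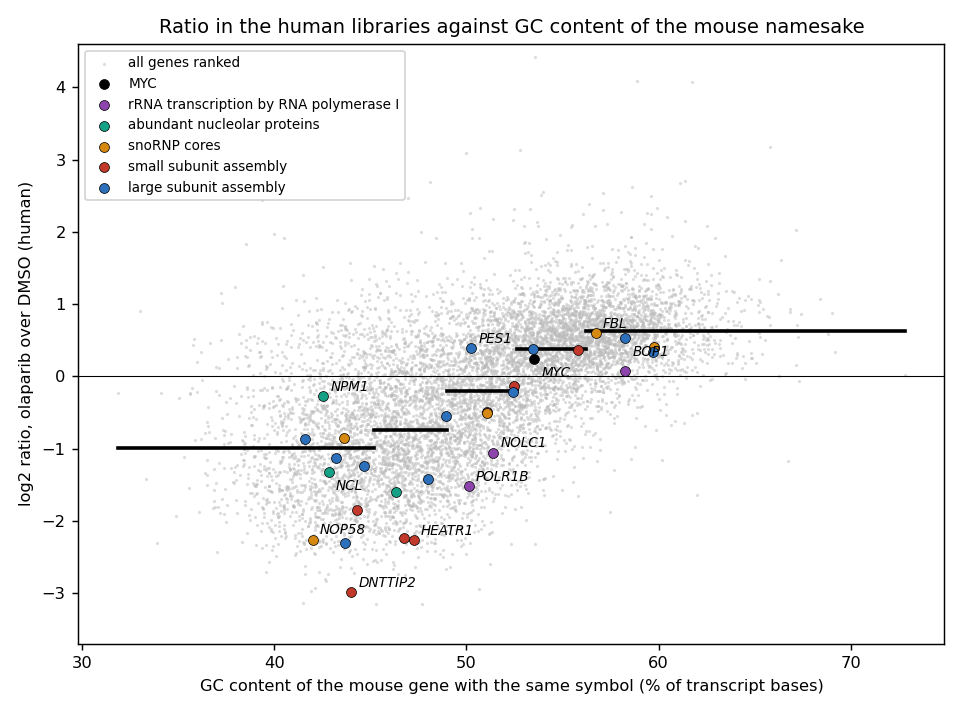
log2 ratio of olaparib over DMSO in the human libraries against the GC content of the mouse gene with the same symbol, in percent of transcript bases; grey points are all ranked genes that have one, coloured points the 30 members by role, and black lines the median ratio within each of the 5 bins of GC content. The line of bin 1 lies at -0.98 and that of bin 5 at 0.62, and the members spread along the same slope, with DNTTIP2 at -2.99 below it.

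With the ratio taken relative to genes of like GC content, an alternative added after seeing the data, 7 members were lower by at least 1 log2, against 8.01% of all genes, and the median of the 30 was -0.34. The 7 were DNTTIP2 (-2.03), HEATR1 (-1.52), UTP20 (-1.40), NOC3L (-1.35), NOP58 (-1.23), POLR1B (-1.19) and NOLC1 (-1.05). The sign of the ratio turned for 10 of the 30 members, and the share of all genes whose sign turned was not computed. NCL was at -0.36 and WDR12 at -0.18, MYC was at -0.09 and FBL at 0.05, and NPM1 was at 0.76 and PES1 at 0.72. With GC content and length fitted together, 5 members were lower by at least 1 log2, against 5.6% of all genes. The sign turned for 12 of the 30 (share of all genes not computed), among them NCL (0.40), POLR1A (0.30) and FBL (-0.16). In the same fit NOP58 was at -0.79 and NOP56 at -0.69. BOP1 was at -0.09, WDR12 at -0.13 and PES1 at 0.71. DNTTIP2, HEATR1, NOC3L and POLR1B stayed below -1 in each setting that ranked them, with highest values of -2.03, -1.08, -1.17 and -1.10. None of them was ranked at a mean of at least 500. The share of all genes that stayed below -1 in this way was not computed.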

How the data were processed

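The values are counts per gene symbol deposited by the authors in a table named as normalized. They were taken as counts because they are whole numbers with unequal totals that fill the values from 1 to 60 more evenly than after scaling by 3%. The chi-square per degree of freedom against a smooth curve was 1.44 (olaparib) and 0.87 (DMSO), and 2.71 to 9.32 after that scaling. Scaling by other amounts was not tried, and the counting intervals rest on this reading. The submitters' processing notes name featureCounts 1.6.2, STAR 2.6.0c and, as builds, hg19 and mm10, without saying what each was used for. The sources used here do not give how the counting treated strand and multi-mapped reads. Overlapping, antisense and near-identical genes may therefore share reads.

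TMM scaling used edgeR 4.0.16 in R 4.3.3 on the 13285 genes with a mean count of at least 10. The remaining steps used Python 3.11.15, scipy 1.17.1 and pandas 2.3.3. Ratios carry a pseudocount of 1 and were ranked at a mean scaled count of at least 50. Intervals are exact conditional binomial (single ratios, quotients) or Wilson (shares) at 95%, and intervals and floors cover counting error only, as PCR copies are not independent molecules. With 1 library per group no p-value was computed. Ratios and intervals were tested on simulated Poisson counts. These carried no trend of the ratio with GC content or length, so the simulation does not cover such a trend. All members are named. From each other list the 2 highest and 2 lowest ranked genes are named, and MAX in addition, chosen after its value was seen. Members and lists were chosen with earlier results of these data known. GC content and length came from GENCODE vM21 mouse transcripts matched by symbol. No human sequence or coordinate is given, and promoter motifs were not searched. The alternatives were 4 scalings, including size factors from DESeq2 1.42.0, 2 pseudocounts, 3 filters and 3 corrections for GC content or length.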

Additional observations from a re-analysis of the deposited data

How the results depend on the processing

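The median of the members, -0.70, was -0.88 to -0.64 under the 4 other scalings and -0.70 and -0.69 with pseudocounts of 0.5 and 5, and 13 to 15 members were lower by at least 1 log2 there. The deposited scale moves the median of all genes to -0.21, so ratios there read relative to that shift. Members higher by at least 0.5 log2 numbered 1 with equal totals and 0 on the deposited scale. At a mean of at least 500, where 14 members were ranked, the median was -0.20 (all genes 0.24), with 5 members lower by at least 0.5 (all genes 22.7%) and 4 by at least 1 log2 (11.9%). The corrections below were chosen after seeing the data. By GC content the median was -0.34, with 10 members lower by at least 0.5 (all genes 22.4%) and 7 by at least 1 log2 (8.01%). By length, 4 members were higher by at least 0.5 (25.4%), 18 lower by at least 0.5 (30.2%) and 9 lower by at least 1 log2 (13.9%). By both together the median was -0.41, with 1 member higher by at least 0.5 (18.8%) and 5 lower by at least 1 log2 (5.6%). The sign turned for 10 members by GC content, 5 by length and 12 by both, and the share of all genes was not computed. Among members with a ratio of at least 0.5 in either direction, those that turned by GC content were DKC1 (0.10), BOP1 (-0.02), BRIX1 (0.17) and NIP7 (0.079). Those that turned by both were NCL (0.40), FBL (-0.16), DKC1 (0.023), BOP1 (-0.093) and BRIX1 (0.007). The cause was not tested. Corrections from human GC content and length were not run, as no human genome was used here. No paired analysis was possible because the human groups hold 1 library each. The counting intervals were widest for NOP2 (-1.21 to 2.67), NOC3L (-2.79 to -1.90) and PPAN (-0.10 to 0.78).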
